A study of Mus musculus with 8 samples.

Results

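The 10 genes described here carry store-operated calcium entry and the NFAT factors it activates in mouse CD8+ T cells: the IP3 receptors Itpr1, Itpr2 and Itpr3, the calcium sensors Stim1 and Stim2, the channel subunits Orai1, Orai2 and Orai3, and the transcription factors Nfatc2 and Nfatc3. They were taken by symbol from a deposited table of 20029 genes, and all 10 were found and passed the filter on low values, as 10732 genes did in all. RNA was measured in 8 libraries of CD8+ T cells sorted from tumours: 4 from mice of the Pglyrp1 knockout strain B6.129S4-Pglyrp1tm1.1Lky/J (KO, replicates 1 to 4) and 4 from C57BL/6J wild-type mice (WT, replicates 6 to 9). Pglyrp1 encodes a secreted protein that binds bacterial peptidoglycan, and the comparison asks what its loss alters in T cells within tumours. All mice carried tumours of MC38-OVA, a colon carcinoma line that expresses ovalbumin, grown under the skin of the right flank, and 1000 live CD45+ TCRβ+ CD8+ cells were sorted for each library. The labels give no age, and the cells were analysed in bulk, so fewer cells of a type and less RNA per cell cannot be told apart.

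When a T cell receptor binds its antigen, phospholipase C makes IP3, which opens IP3 receptors in the membrane of the endoplasmic reticulum and lets calcium out of this store. STIM proteins sense that the store has emptied and open ORAI channels in the plasma membrane, through which calcium enters the cell. The calcium binds calmodulin, which switches on the phosphatase calcineurin, and calcineurin removes phosphate from NFAT proteins so that they enter the nucleus, where they drive cytokine genes and, in chronically stimulated cells, genes of exhaustion.

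Levels are given as TPM, the deposited values rescaled to a sum of 1000000 per library. By the name the authors gave it this is a scale per gene length, which was not tested. Each KO library listed Pglyrp1 at 0, while WT 6 to 9 had 123, 210, 208 and 153 TPM. All 12 T cell markers were present in every library, with Cd8a at 376 to 505.6 TPM and Cd3e at 675 to 1011 TPM. Of these 12, 9 had a negative and 3 a positive difference between KO and WT (median -0.10 on the log2 scale), and 2 were lower in KO with groups that did not overlap: Cd8b1, the CD8 beta chain (-0.38), and Lat, the adaptor that carries the receptor signal to phospholipase C (-0.52). Their summed level was 7626, 7707, 6798 and 6676 TPM in KO 1 to 4 and 7011, 9301, 9363 and 7046 TPM in WT 6 to 9, highest in WT 7 and 8. Some libraries stood apart within their group. KO 3 and KO 4 exceeded all the other libraries in 16 of 20 myeloid markers, and in 14.2% of all genes tested. The markers summed to 5316 and 8177 TPM in these libraries, to 369 and 303 in KO 1 and 2 and to 160 to 475 in WT. WT 6 and WT 9 exceeded all the other libraries in 6 of 8 genes of naive and memory T cells, and in 7.43% of all genes tested. They summed to 2263 and 2022 TPM there, to 574 and 647 in WT 7 and 8 and to 376 to 1352 in KO. All 8 had a negative difference between KO and WT (median -0.56). Among the other markers, those of B and plasma cells summed to 51.2 and 52.3 TPM in WT 6 and 9 and to at most 21.1 elsewhere, and Pax5 was at most 0.406 TPM. NK cell markers, several of which activated CD8+ cells also carry, summed to 1229 to 1479 TPM across KO and 400 to 1978 across WT, and those of CD4 and regulatory T cells to 36.4 to 109 and 16.3 to 53.1. All 10 NK cell markers had a positive difference between KO and WT (median 1.00). The groups did not overlap for 2 of them, both higher in KO, beside 2.62% of all genes. Red cell and platelet markers spanned 6.65 to 2103 TPM across KO and 3.60 to 849 across WT, and epithelial markers 4.85 to 80.8 and 3.15 to 21.1. Fits with the myeloid markers or the naive and memory genes as a covariate are given below for some genes. As the summed myeloid markers were high in KO 3 and 4 alone, that covariate cannot be told apart from other traits of these libraries. Beyond these fits, the part of the markers in the results was not tested.

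Differences are KO minus WT in log2(TPM + 1), a scale that understates the change of low genes, tested with limma and adjusted by the method of Benjamini and Hochberg over all 10732 genes. None of the 10 genes passed at an adjusted p of 0.05, where 0.0280% of all genes did. The smallest adjusted p was that of Orai2, 0.306. At an unadjusted p under 0.05 there was 1 of 10, Orai2, lower in KO, beside 3.07% of all genes tested that were lower by this rule and 6.01% that were higher. The KO and WT values did not overlap for 1 of 10, again Orai2, beside 2.40% of all genes lower in KO and 2.62% higher. In all, 3 of the 10 had a positive and 7 a negative difference, with a median of -0.23, beside 5926 positive and 4806 negative and a median of 0.04 over all genes tested. As the genes were chosen with earlier results of these data known, these counts are a description.

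**Figure D1:**
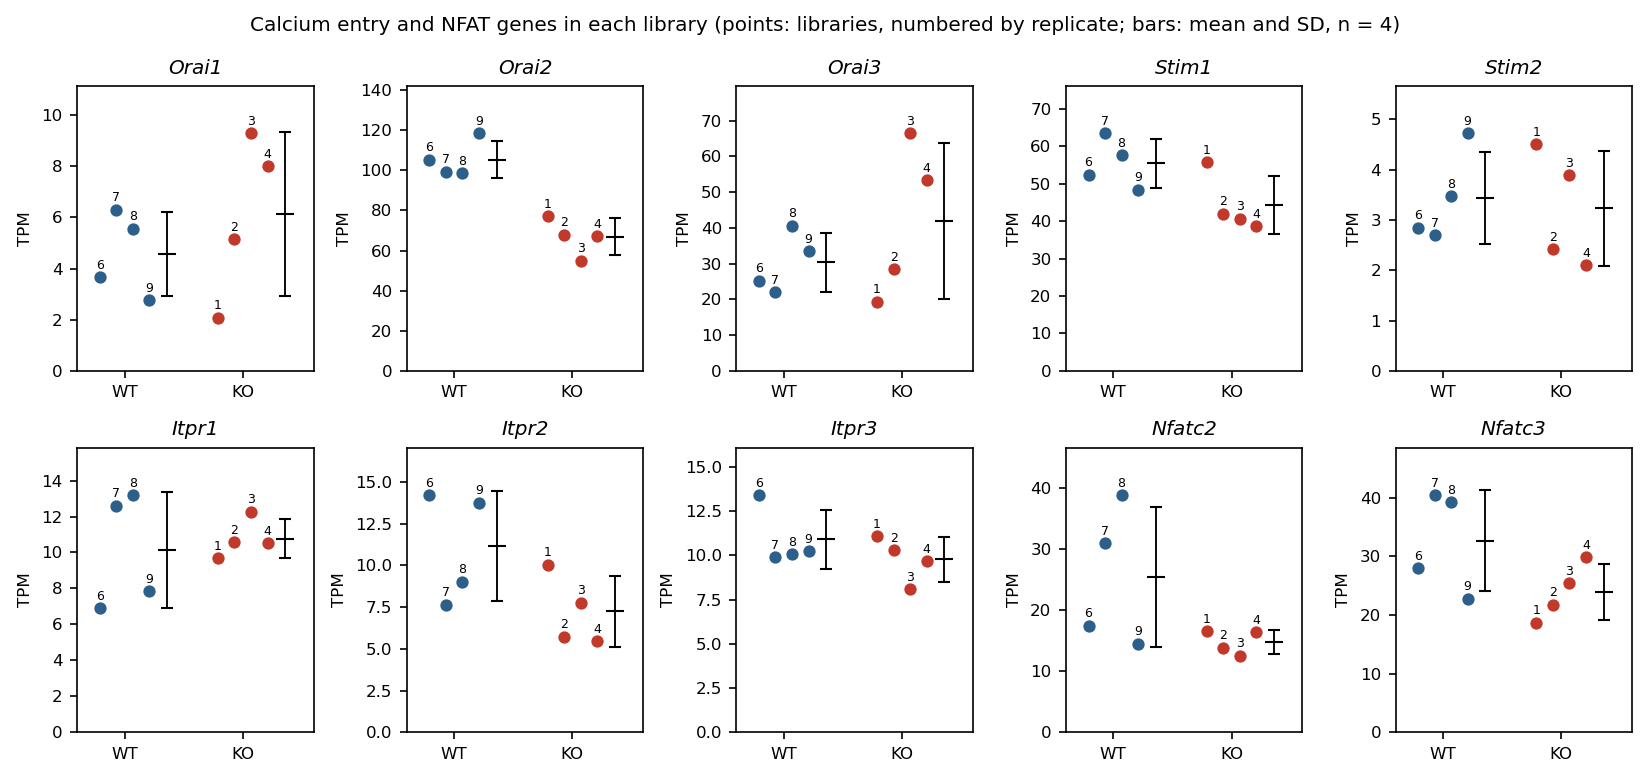
TPM (vertical axis, from 0) of the 10 genes in WT and KO libraries, where each point is 1 library, numbered by its replicate, and the bar beside each group is its mean and SD (n = 4). Orai2 is the gene whose groups do not overlap, with KO libraries at 55.04 to 77.3 TPM and WT libraries at 98.6 to 118 TPM.

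The most abundant of the 10 was Orai2, with a mean of 86.2 ± 22.3 TPM over all libraries (SD, n = 8), followed by Stim1 (49.9 ± 8.93), Orai3 (36.1 ± 16.5), Nfatc3 (28.3 ± 7.96) and Nfatc2 (20.2 ± 9.50). The IP3 receptors lay close together, Itpr1 at 10.5 ± 2.24, Itpr3 at 10.3 ± 1.50 and Itpr2 at 9.21 ± 3.32 TPM. Orai1 (5.34 ± 2.50) and Stim2 (3.33 ± 0.972) were lowest. The upper gene of a neighbouring pair was higher in all 8 libraries for Orai2 over Stim1, Nfatc3 over Nfatc2 and Nfatc2 over Itpr1. In the other pairs it was higher in 5 or 6 of 8, so the order of those neighbours was not the same in every library. Stim2 and Orai1 rest on small deposited values, 5 to 13 and 6 to 31 units before rescaling. If the deposited values are counts, this order and the family shares below also depend on gene length, which was not tested. The exons of Orai2 span 6077 bases and those of Orai3 2141.

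The IP3 receptors release calcium from the store. Itpr1 (chromosome 6, 108213096 to 108551109) was at 9.70, 10.6, 12.3 and 10.5 TPM across KO 1 to 4, against 6.91, 12.6, 13.2 and 7.87 across WT 6 to 9. The KO values lay between a low and a high pair of WT libraries, and the difference was 0.12 (95% interval -0.42 to 0.66, limma adjusted p = 0.910). The sign rested on the low pair: without WT 6 and 9 the difference was -0.24 with groups apart, as were those of 20.0% of all genes, and without WT 6 alone it was -0.028. Itpr2 (chromosome 6, 146108299 to 146502223) was at 10.05, 5.74, 7.78 and 5.47 TPM across KO, against 14.2, 7.65, 9.03 and 13.8 across WT. Here WT 6 and WT 9 were the high libraries and the groups overlapped (difference -0.55, interval -1.16 to 0.06, limma adjusted p = 0.574). Without these libraries the difference of Itpr2 was -0.21, and with the naive and memory genes as a covariate it was -0.32. Itpr3 (chromosome 17, 27057304 to 27122223) was at 11.1, 10.3, 8.08 and 9.68 TPM across KO, against 13.4, 9.90, 10.07 and 10.2 across WT. It varied least of the receptors, and its difference of -0.14 had an interval of -0.57 to 0.29 (limma adjusted p = 0.848). The summed level of the IP3 receptors was 27.8 ± 2.26 TPM across KO and 32.2 ± 1.81 across WT libraries (SD, n = 4). Within that sum the share of Itpr2 was 41.2% for WT 6 and 43.2% for WT 9, while elsewhere it was 21.3% to 32.6%. Itpr1 took 20.0% and 24.7% in WT 6 and 9 and 31.5% to 43.6% elsewhere. The naive and memory genes were highest in the same WT libraries, and their part in these shares was not tested.

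**Figure D2:**
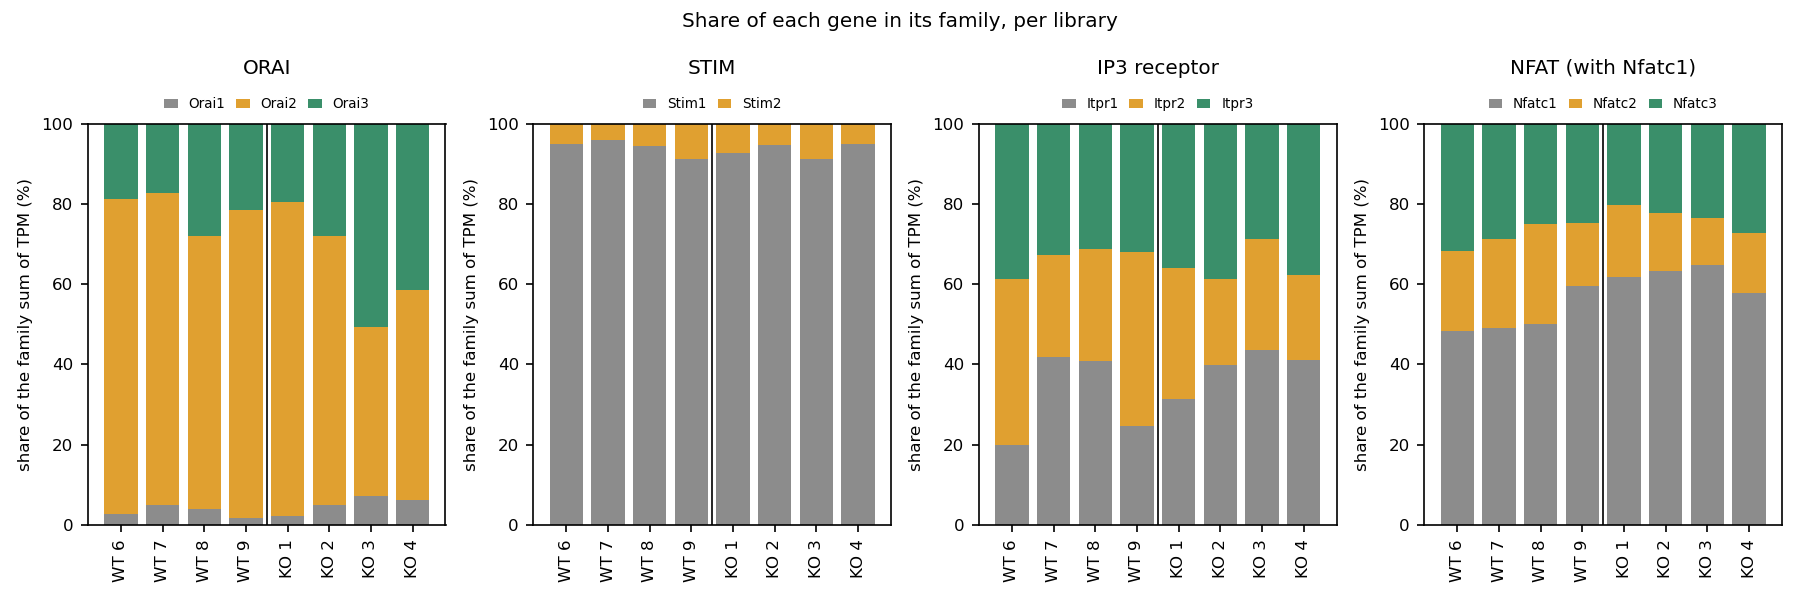
Share (%) of each gene in the summed TPM of its family, 1 bar per library, WT left and KO right of the line; the NFAT panel adds Nfatc1, which is not among the 10 genes. Orai3 takes 50.8% and 41.5% of the ORAI sum in KO 3 and 4, and Itpr2 takes 41.2% and 43.2% of the IP3 receptor sum in WT 6 and 9.

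The STIM sensors were represented mainly by Stim1 (chromosome 7, 102267806 to 102437319), which made up 91.1% to 95.9% of the STIM sum in every library. Stim1 was at 55.8, 42.02, 40.7 and 38.7 TPM across KO 1 to 4, against 52.4, 63.4, 57.6 and 48.4 across WT 6 to 9. KO 2, 3 and 4 were below every WT library, and KO 1 lay within the WT range. The mean was 44.3 ± 7.78 TPM across KO and 55.5 ± 6.52 across WT libraries (SD, n = 4; difference -0.33, interval -0.69 to 0.03, limma adjusted p = 0.573). The difference was -0.18 without KO 3 and 4. It was -0.45 without WT 6 and 9 and -0.44 without KO 1, with groups apart in these last settings, as were those of 20.0% and 10.7% of all genes. Stim2 (chromosome 5, 53998499 to 54121057), which responds to smaller losses from the store, was at 2.10 to 4.50 TPM across KO, against 2.70 to 4.72 across WT libraries. The difference of -0.09 had an interval of -0.72 to 0.55 (limma adjusted p = 0.948), which spans differences of either sign. Stim1 and Orai3 lie on the same chromosome as Pglyrp1, 83.4 and 109 Mb from it.

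Among the ORAI channel subunits, Orai2 had lower RNA levels throughout the KO group. It was at 77.3, 68.02, 55.04 and 67.3 TPM across KO 1 to 4, against 105, 99.4, 98.6 and 118 across WT 6 to 9. The highest KO library, KO 1, was below the lowest WT library, WT 8. WT 6 and WT 9, the libraries with high naive and memory genes, were the highest for Orai2. They were so for 2 of the 10 genes, Orai2 and Itpr2, and for 7.43% of all genes tested. The mean was 66.9 ± 9.12 TPM across KO and 105 ± 9.14 across WT libraries (SD, n = 4), a ratio of 0.635. The log2 difference of -0.65 (SE 0.14, 95% interval -0.97 to -0.34) had an unadjusted limma p of 0.00105, rank 36 of 10732, and did not pass after adjustment (adjusted p = 0.306). A two-sided exact permutation test of the same values gave p = 0.0286, the smallest that 70 assignments allow. Orai2 (chromosome 5, 136147459 to 136170713, minus strand) encodes a subunit that in T cells assembles with Orai1 and lowers the current of the mixed channel. The difference was -0.53 without KO 3 and 4 and -0.57 without WT 6 and 9 (limma adjusted p = 0.9998 and 0.455). The groups were apart in both, as were those of 12.9% and 20.0% of all genes. Groups that are apart over all libraries cannot overlap when some are left out, so this adds nothing to the separation. Of the 12 T cell markers given above, Cd8b1 and Lat were likewise lower in each KO library, and the groups of all the others overlapped. Among the 12, 9 had a negative and 3 a positive difference (median -0.10). The part of T cell content in the Orai2 difference was not tested. The Orai2 difference was -0.55 with the myeloid markers as a covariate and -0.60 with the naive and memory genes.

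Orai1 (chromosome 5, 123015074 to 123030456), the principal pore subunit of the T cell calcium channel, had low RNA levels: 2.08, 5.14, 9.27 and 8.0 TPM across KO 1 to 4, against 3.66, 6.30, 5.56 and 2.75 across WT 6 to 9. KO libraries held both the lowest and the highest values. Orai3 (chromosome 7, 127769815 to 127775150), a mammalian paralog that also forms store-operated channels, was at 19.4, 28.4, 66.4 and 53.4 TPM across KO, against 25.2, 22.04, 40.6 and 33.4 across WT. For both genes KO 3 and KO 4 were the 2 highest of the 8 libraries, as for 14.2% of all genes tested. The differences were 0.27 for Orai1 (interval -0.64 to 1.18, limma adjusted p = 0.870) and 0.34 for Orai3 (interval -0.50 to 1.17, limma adjusted p = 0.810). Without KO 3 and 4 both turned, to -0.31 for Orai1 and -0.32 for Orai3. With the myeloid markers as a covariate they were -0.31 for each. As that covariate was high in KO 3 and 4 alone, these settings are not separate checks. These libraries had the high myeloid markers given above, among them Lyz2, the lysozyme of macrophages, at 902 and 2952 TPM. Not every marker of that list was high in them. Apoe was at 0.897 and 4.21 TPM in KO 3 and 4, against 3.47 to 49.6 across WT libraries, and Itgax was highest in WT 7 and 8.

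The makeup of the ORAI family varied more among KO than among WT libraries. Orai2 took 78.2%, 67.0%, 42.1% and 52.3% of the ORAI sum in KO libraries 1 to 4 and 78.5%, 77.8%, 68.1% and 76.6% across WT 6 to 9. KO 1 had the WT makeup, and KO 2 lay close to WT 8, with Orai3 at 28.0% and 28.1%. The libraries far from the WT makeup were KO 3 and 4, those with high myeloid markers, with Orai3 at 50.8% and 41.5%. The part of these markers in the shares was not tested. Orai1 took 1.78% to 7.09% of the sum in any library. The sum itself was 115 ± 17.1 TPM across KO and 140 ± 11.8 across WT libraries (SD, n = 4).

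The promoters of the ORAI genes are printed to show how the stretch before each start differs between the paralogs, whose levels differed in their pattern across libraries. Each line gives bases -250 to -58 from the RefSeq start (build GRCm38.p6), 193 bases read 5′ to 3′ on the gene's strand, and capitals mark the NFAT core GGAAA or its reverse TTTCC. The windows lie at chr5:123014824-123015016 (plus strand) for Orai1, chr5:136170714-136170906 (minus) for Orai2 and chr7:127769565-127769757 (plus) for Orai3.
Orai1: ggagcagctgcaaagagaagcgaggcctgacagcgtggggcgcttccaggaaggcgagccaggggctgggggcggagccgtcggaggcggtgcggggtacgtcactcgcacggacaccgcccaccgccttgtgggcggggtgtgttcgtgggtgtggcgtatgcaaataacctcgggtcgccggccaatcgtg
Orai2: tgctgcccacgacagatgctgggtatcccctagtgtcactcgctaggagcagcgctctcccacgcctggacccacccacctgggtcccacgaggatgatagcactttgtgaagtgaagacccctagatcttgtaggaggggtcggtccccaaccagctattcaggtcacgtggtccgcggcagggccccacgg
Orai3: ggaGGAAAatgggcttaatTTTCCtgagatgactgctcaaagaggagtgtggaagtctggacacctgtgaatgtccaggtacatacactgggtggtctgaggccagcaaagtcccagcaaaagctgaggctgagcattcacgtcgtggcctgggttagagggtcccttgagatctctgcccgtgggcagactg
The core was found at 2 places in the Orai3 window and at none in those of Orai1 and Orai2. Of 32851 RefSeq promoter windows of this length, 47.5% hold it. The GC box GGGCGG, searched on both strands (reverse CCGCCC), was found at 3 places in the Orai1 window and at none in the Orai2 and Orai3 windows, and 23.5% of all windows hold it. These are matches of letters, and no binding was measured here.

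**Figure D3:**
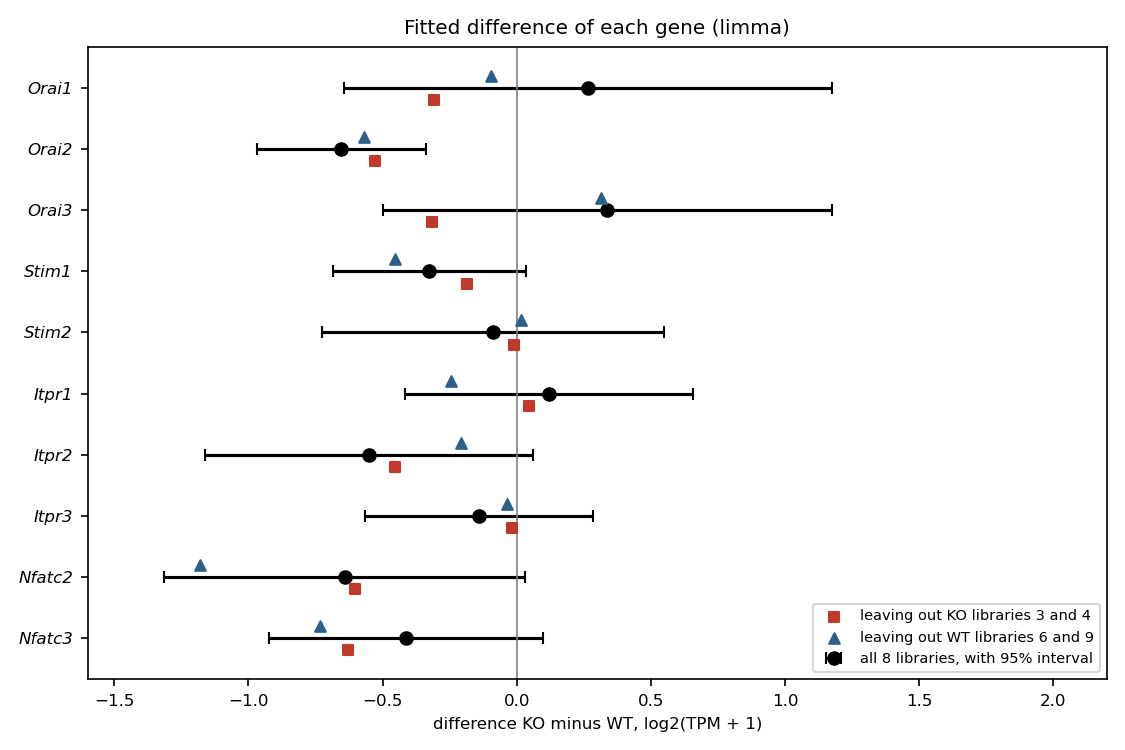
Fitted difference (KO minus WT, log2(TPM + 1), horizontal axis) of each gene with all 8 libraries and its 95% interval (black), and without KO 3 and 4 (red squares) or WT 6 and 9 (blue triangles). The interval of Orai2 alone lies off 0, Orai1 and Orai3 turn without KO 3 and 4, and Nfatc2 goes from -0.64 to -1.18 without WT 6 and 9.

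NFAT factors are the targets of the calcium signal. Nfatc2 (NFAT1; chromosome 2, 168476410 to 168601657) was at 16.6, 13.9, 12.6 and 16.4 TPM across KO 1 to 4, against 17.5, 31.04, 38.9 and 14.6 across WT 6 to 9. The KO libraries and WT 6 and 9 lay within a narrow range, and WT 7 and 8 were the high ones. The mean was 14.9 ± 1.98 TPM across KO and 25.5 ± 11.5 across WT libraries (SD, n = 4; difference -0.64, interval -1.31 to 0.03, limma adjusted p = 0.562). Nfatc3 (NFAT4; chromosome 8, 106058840 to 106130537) was at 18.7, 21.8, 25.4 and 29.9 TPM across KO, against 28.04, 40.5, 39.2 and 22.8 across WT. WT 7 and 8 were again the highest, and the other WT libraries lay within the KO range (means 23.9 ± 4.81 and 32.6 ± 8.62, difference -0.41, interval -0.93 to 0.10, limma adjusted p = 0.615). Without WT 6 and 9 the differences were -1.18 for Nfatc2 and -0.73 for Nfatc3, with limma adjusted p of 0.315 and 0.455. The groups were then apart for both, as were those of 20.0% of all genes (12.8% lower) and of 7 of the 12 T cell markers, all 7 lower. WT 7 and 8 alone remained on the WT side, and they had been the highest libraries for both genes. Without KO 3 and 4 the groups of Nfatc3 were apart (-0.63), as were those of 12.9% of all genes (7.76% lower). With the naive and memory genes as a covariate they were -0.87 and -0.63. Along with Stim1 and Itpr1, these 2 genes had their highest values in WT 7 and WT 8, 4 of the 10 in all, as did 9.98% of all genes tested. Nfatc3 shares exonic bases with Esrp2 on the opposite strand, which was at 0 to 1.35 TPM. The protocol does not say that strand was kept, so reads of the shared part cannot be told apart.

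A promoter window of Nfatc2 is shown since it holds more NFAT cores than any other window of these genes. It lies at chr2:168601715-168601907 (minus strand), again bases -250 to -58 from the RefSeq start with the core in capitals.
Nfatc2: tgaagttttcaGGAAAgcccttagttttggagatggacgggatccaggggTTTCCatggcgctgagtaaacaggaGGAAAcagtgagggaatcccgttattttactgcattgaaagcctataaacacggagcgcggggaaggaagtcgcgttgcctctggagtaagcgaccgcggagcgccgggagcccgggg
It holds the core at 3 places. RefSeq promoters were at hand for 9 of the 10 genes, in 11 windows, of which 3 hold the core: the one above, a second start of Nfatc2 and that of Orai3. Of all RefSeq promoter windows of this length 47.5% hold it. The GC box was found in 6 of the 11 windows, beside 23.5% of all windows.

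Nfatc1 (NFAT2), an NFAT gene induced by its own pathway, averaged 63.1 ± 5.32 TPM across KO and 61.2 ± 15.6 across WT libraries (SD, n = 4), from 42.7 in WT 6 to 78.1 in WT 8. It was the most abundant of these 3 NFAT genes, and its difference was 0.08 (limma adjusted p = 0.933), or -0.22 without WT 6 and 9. Of their sum it made up 62.0% ± 3.0 across KO libraries, against 51.7% ± 5.26 across WT (SD, n = 4), with 57.9% in the lowest KO and 59.6% in the highest WT library. The share of Nfatc2 was 14.7% ± 2.61 and 20.6% ± 3.87.

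By a fixed measure of likeness, Pearson's r of log2(TPM + 1) over the 8 libraries among 6471 other genes that averaged 10 TPM or more, the genes most like Orai2 were Kif21b (r = 0.953), a kinesin, Acaa2 (0.948), a mitochondrial thiolase, and Kdm2a (0.942), a histone demethylase. All 3 shared its separation of the groups, with Kif21b at 21.04 to 25.6 TPM across KO, against 34.5 to 36.9 across WT libraries. As the groups of Orai2 lie apart, genes chosen for likeness to it tend to share this separation. They are the 3 highest r of 6471 over 8 libraries and are given as a description.

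The rest of the pathway was followed in 8 lists, drawn from textbook knowledge with earlier results of these data known. Together they held 89 tested genes besides the 10, of which 0 passed at an adjusted p of 0.05 in limma, 13 were higher and 2 lower at an unadjusted p under 0.05 (14.6% and 2.25%, beside 6.01% and 3.07% of all genes), and 59 were positive and 30 negative (median 0.14). Of the 13, 10 belong to the list of NFAT targets. Without KO 3 and 4, of 91 tested 8 were higher and 2 lower at an unadjusted p under 0.05. Of all genes 1.73% and 2.49% were so in that setting. Without WT 6 and 9, of 94 tested 7 were higher and 10 lower, beside 3.63% and 5.47% of all genes. Of these 94, 45 were positive and 49 negative. Among 11 genes that make, break or act beside IP3, 0 passed and 8 were positive (median 0.11). Plcg2, a phospholipase C of B and myeloid cells, reached 19.4 TPM in both KO 3 and KO 4 and no more than 4.50 elsewhere (difference 0.86, limma adjusted p = 0.738; -0.56 without KO 3 and 4). Itpkb, which turns IP3 into IP4, was at 4.84 to 9.57 TPM across KO, against 7.47 to 10.2 across WT libraries (difference -0.40, limma adjusted p = 0.637).

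Of 9 tested regulators of STIM and ORAI, 0 passed, 3 were positive and 6 negative (median -0.09). Saraf, listed as Tmem66, encodes a protein of the endoplasmic reticulum that promotes the slow inactivation of store-operated entry. It was at 655, 563.5, 455 and 375 TPM across KO 1 to 4, against 743, 664, 722 and 669 across WT 6 to 9. Every KO library was below every WT library, KO 1 narrowly, and KO 3 and 4 were the lowest (difference -0.48, unadjusted p = 0.0226, limma adjusted p = 0.498; -0.20 without KO 3 and 4). Septin 2 (Sept2), one of the septins that organise the membrane around ORAI channels, was at 86.6 to 123 TPM across KO, against 61.8 to 103 across WT libraries, with a difference of 0.35 (limma adjusted p = 0.627), or 0.036 without WT 6 and 9.

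Of 11 pumps, exchangers and mitochondrial genes 0 passed and 9 were positive (median 0.23). Atp2a3, which encodes the SERCA3 pump that refills the store, was at 102, 81.02, 81.4 and 82.5 TPM across KO, against 99.6, 158, 135 and 94.4 across WT. It followed the course of the NFAT factors in that WT 7 and 8 were highest (difference -0.46, limma adjusted p = 0.525; -0.75 without WT 6 and 9). Mcub (listed as Ccdc109b), a subunit that restrains the mitochondrial uniporter, was at 12.8, 9.98, 38.0 and 55.5 TPM across KO, against 3.66 to 13.9 across WT libraries, so its high values were those of KO 3 and 4 (difference 1.50, limma adjusted p = 0.501), and without them the difference was 0.53. Among 9 channels that set the membrane potential or carry other cations, 0 passed. Kcnn4, the calcium-activated potassium channel that keeps the driving force for calcium entry, was at 15.9, 62.3, 63.1 and 82.9 TPM across KO, against 141, 152, 144 and 46.8 across WT. WT 6, 7 and 8 were above every KO library, and WT 9 lay among them (difference -1.18, limma adjusted p = 0.558; -1.61 without WT 6 and 9). P2rx4, an ATP-gated channel, reached 35.00 and 36.2 TPM in KO 3 and 4 and no more than 11.8 elsewhere (difference 1.11, limma adjusted p = 0.527; 0.24 without KO 3 and 4).

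Of 14 genes of calmodulin, calcineurin and calmodulin kinases, 0 passed, with 6 positive and 8 negative (median -0.05). Calm3 was at 43.3 to 75.7 TPM across KO, against 34.1 to 58.5 across WT libraries (difference 0.45, limma adjusted p = 0.596; 0.21 without KO 3 and 4 and 0.12 without WT 6 and 9), and Camk1d at 6.88 to 8.66 and 7.99 to 11.7 (difference -0.33, limma adjusted p = 0.637). Among 12 calcineurin inhibitors and NFAT kinases 0 passed (median 0.09). Rcan3, a calcineurin inhibitor, was at 4.16 to 8.97 TPM across KO, against 3.54 to 5.40 across WT libraries (difference 0.63, limma adjusted p = 0.540; 0.28 without KO 3 and 4). Dyrk2, one of the NFAT kinases, was at 3.37 to 12.7 and 6.95 to 16.9 TPM (difference -0.71, limma adjusted p = 0.639). This difference was -0.056 without KO 3 and 4 and -0.21 without WT 6 and 9. Of the 3 other NFAT family genes tested 0 passed, and Nfat5, the factor of osmotic stress, had a difference of 0.33 (limma adjusted p = 0.755; 0.21 without KO 3 and 4 and 0.15 without WT 6 and 9).

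The textbook targets of NFAT had mostly higher values in KO cells. Of 20 tested, 0 passed, 18 were positive and 2 negative (median 0.85), and at an unadjusted p under 0.05 there were 10 higher and 0 lower, beside 6.01% and 3.07% of all genes. The groups did not overlap for 6, beside 2.62% of all genes that were higher by this rule, and all 6 were higher in KO: Nr4a2, Lag3, Tnfrsf9, Irf4, Ccl3 and Ccl4. Several of these were picked out by earlier results of these data, so the list is not independent evidence of its direction. Nr4a2, an orphan nuclear receptor induced by receptor signals, was at 31.9, 22.7, 40.4 and 42.5 TPM across KO 1 to 4, against 3.25, 7.65, 6.95 and 9.05 across WT 6 to 9 (difference 2.22, limma adjusted p = 0.101; 1.92 without KO 3 and 4 and 2.05 without WT 6 and 9). Cd40lg, the CD40 ligand, was at 4.50 to 10.9 TPM across KO, against 5.51 to 18.4 across WT libraries, with WT 7 and 8 highest (difference -0.62, limma adjusted p = 0.685; -1.37 without WT 6 and 9). The summed level of the targets was 3341, 2864, 5303 and 3892 TPM in KO 1 to 4 and 460, 2125, 1711 and 1189 TPM in WT 6 to 9. It was highest in KO 3 and 4, the libraries with high myeloid markers, and lowest in WT 6 and 9, those with high naive and memory genes. The part of these markers in the target values was not tested. The sums of KO 1 and 2 were above those of WT 7 and 8. Without KO 3 and 4, of 21 targets tested 8 were higher and 0 lower at an unadjusted p under 0.05 (1.73% and 2.49% of all genes), and without WT 6 and 9, of 21 tested 7 were higher and 2 lower (3.63% and 5.47%). Rcan1, a calcineurin inhibitor that is itself an NFAT target, was at most 1.22 TPM in any library and was not tested.

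**Figure D4:**
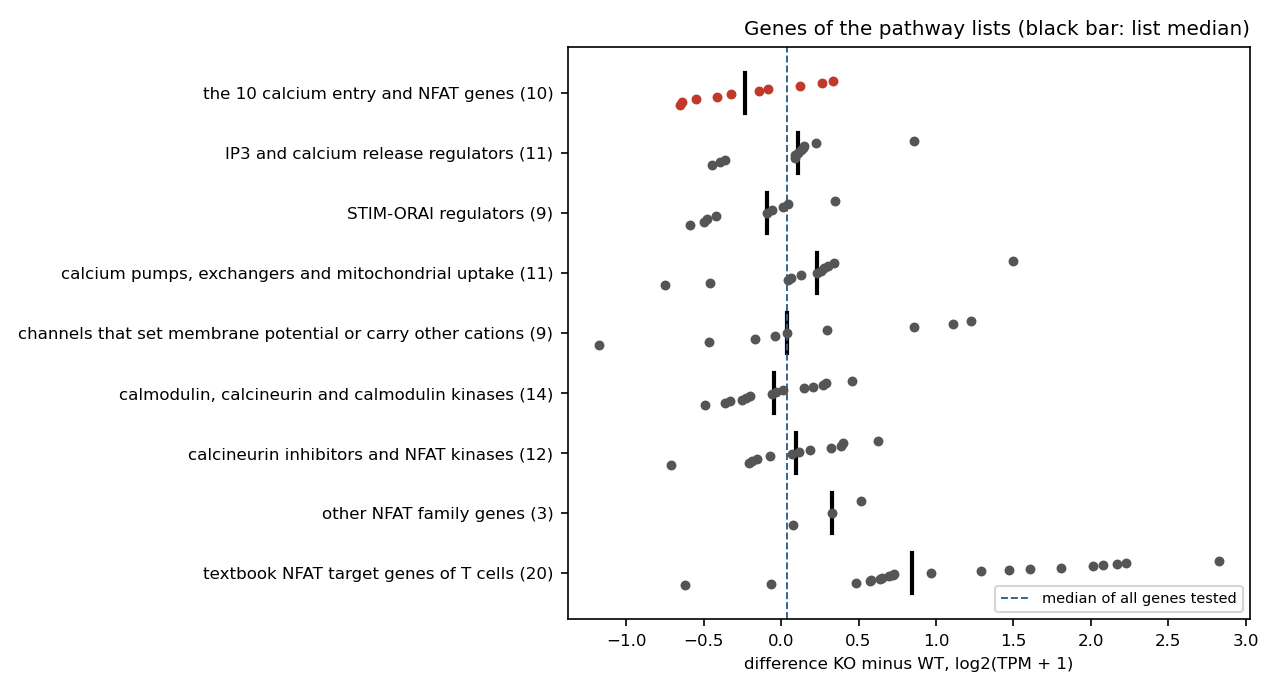
Difference (KO minus WT, log2(TPM + 1), horizontal axis) of every tested gene of the 10 and of the 8 pathway lists, 1 point per gene, with the number tested in brackets and a black bar at the list median; the dashed line is the median of all genes tested. The medians lie from -0.23 for the 10 genes to 0.85 for the NFAT targets, and no gene shown passed the adjusted threshold.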

How the data were processed

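RNA was measured in 8 libraries made with a modified SMART-Seq2 method and Nextera XT, sequenced in pairs of 38 bases, per the labels' protocols. The deposited values are a score that the authors named a TPM-normalized count: whole numbers summing to between 2223162 and 3342847 per library, so not TPM as deposited. Such values do not exclude counts. If they are counts, the order of the genes by level and the family shares would also depend on gene length, which was not tested. The submitters' processing notes name RSEM 1.3.3 and mm10. How the values were then scaled and rounded, and with which aligner and gene models, is not given in the sources used here. The test had been planned for TPM, and each library was therefore rescaled to 1000000. One deposited unit was then worth 0.299 to 0.450 TPM. Depth is unknown, so no counting intervals are given.

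Genes reaching 1 TPM in 4 or more libraries (with fewer libraries, in as many as the smaller group) were tested on log2(TPM + 1) with limma 3.58.1 in R 4.3.3 (mean trend, group as the only term), adjusted over all 10732 genes. Python 3.11.15, pandas 2.3.3, numpy 2.4.6 and matplotlib 3.10.9 handled the tables. The fit was tested on simulated data, with changes larger than that of any of the 10 genes and without libraries that stand apart. It therefore cannot tell how well differences of the size seen here are found. Libraries come from 4 mice of each genotype, and p-values reflect their spread. The 10 genes, the lists and the alternatives, among them those that leave out KO 3 and 4 or WT 6 and 9, were chosen with earlier results of these data known. Named genes were the 10, and per list those that passed, else the gene of smallest p in each direction. Of 209 list entries, 198 matched the table, 13 by another symbol. Gene coordinates are those of GENCODE M21 (mm10, 1-based), and promoters come from RefSeq (GRCm38.p6).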

Additional observations from a re-analysis of the deposited data

Results flagged for a closer look

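A single library far from the other 3 of its group was found in 4 of 50 groups checked (25 genes in KO and in WT), where chance gives about 1 in 20, or 2.5. Among the 10 genes this was Itpr3, at 13.4 TPM in WT 6 beside 9.90 to 10.2 in the other WT libraries, a narrow range. Among the pathway genes, Kcnn4 was at 46.8 TPM in WT 9 (141 to 152 in the others), Atp2a3 at 102 TPM in KO 1 (81.02 to 82.5) and Rcan3 at 5.40 TPM in WT 7 (3.54 to 3.82).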

How the results depend on the processing

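No paired analysis was possible because KO libraries are numbered 1 to 4 and WT libraries 6 to 9 and share no number. In each of 24 alternatives 0 of the genes tested among the 10 passed. Stim2 was not tested in 1 of them, the filter of 5 TPM in 4 libraries. Orai2, Stim1, Itpr2, Nfatc2 and Nfatc3 kept a negative difference in all 24. Orai2 ranged from -0.79 to -0.43 (limma adjusted p from 0.231 to 0.9999), with an unadjusted p under 0.05 in 24 and groups apart in 23. Most of these 23 could not have differed. Another pseudocount, filter, variance model, weighting or covariate leaves the compared values as they were, and leaving out libraries cannot make separate groups overlap. Only another scaling of the values could. The exception was the deposited values without rescaling, where the groups overlapped for all 10 (0 apart, beside 5.90% of all genes) and the median of all genes was 0.27. The number of the 10 whose groups do not overlap was 3 when rescaled without ribosomal protein and the 20 most abundant genes (Orai2, Nfatc2 and Nfatc3, beside 5.60% of all genes). Leaving out single libraries gave 1 to 2 (2 without KO 1, which adds Stim1, beside 10.7% of all genes, and 2 without WT 9, which adds Nfatc2, beside 8.54%). It was 2 without KO 3 and 4 (12.9% of all genes), 5 without WT 6 and 9 (20.0%) and 7 without all 4 (43.3%). Leaving out 1 library gave 2 to 9 genes past the threshold in all (5 without KO 1, 9 without KO 2, 2 or 3 otherwise), omitting KO 3 and 4 gave 5, omitting WT 6 and 9 gave 5, and omitting all 4 gave 10.

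The other 5 genes turned sign in some settings. With the myeloid covariate Orai1 was at -0.31, Orai3 at -0.31 and Itpr3 at 0.021. With the naive and memory covariate Orai1 was at -0.076, Stim2 at 0.045 and Itpr1 at -0.049. Without rescaling Stim2 was at 0.10 and Itpr3 at 0.073. Without KO 3 and 4 Orai1 was at -0.31 and Orai3 at -0.32. Without WT 6 and 9 Orai1 was at -0.10, Stim2 at 0.015 and Itpr1 at -0.24. Without all 4 Orai1 was at -0.67, Orai3 at -0.34, Stim2 at 0.093, Itpr1 at -0.32 and Itpr3 at 0.088. With 1 library left out Stim2 ranged from -0.23 to 0.048 and Itpr1 from -0.028 to 0.25. The cause was not tested. Values of the pathway lists and their named genes without these libraries were added after seeing the data.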

Other observations

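Relations among the 10 genes were computed for all 45 pairs over the 8 libraries. No pair passed after Benjamini-Hochberg adjustment of the exact permutation p (smallest adjusted p = 0.273 for Pearson's r and 0.326 for Spearman's rho), and since libraries fall into clusters for several genes no pooled r is given.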
